A study of Mus musculus with 21 samples.

Results

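The CCN genes Ccn1 (Cyr61), Ccn2 (Ctgf), Ccn3 (Nov), Ccn4 (Wisp1) and Ccn5 (Wisp2) were followed in cultured mouse lung fibroblasts under 7 treatments. They were picked by name, as the rows whose mouse Ensembl IDs carry these symbols, and are 5 of 52636 genes in the table. All 5 passed the filter on low counts, as did 16197 genes in all. A further family gene, Ccn6, was not among the genes chosen. It had 13 counts in all 21 libraries together, at most 5 in any library and 0 in 13 of them, and was not tested. A count of 0 allows up to 3 counts in that library.

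CCN proteins are secreted into the matrix, where they carry signals rather than build structure. They are made of modules that resemble insulin-like growth factor binding proteins, von Willebrand factor type C domains and thrombospondin repeats, and most end in a cystine knot, which CCN5 lacks. CCN proteins bind integrins, the receptor LRP1 and heparan sulphate proteoglycans on the cell. In lung and other scarring tissue CCN2 is known as a gene induced by TGFb and as a marker of fibrosis. CCN1 is an early response gene driven by serum, stretch and the YAP-TEAD transcription factors. CCN4 was found as a gene induced by Wnt1, while CCN3 and CCN5 have been described as opposing CCN2 in other settings.

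The cells were Ly6C+/Sca-1+ fibroblasts, named for 2 surface proteins. The groups were DMSO (the solvent alone), CHIR, TGFb1, TGFb1 + DMSO, TGFb1 + CHIR, TGFb1 + IL1b and TGFb1 + TNF, with 3 libraries each. TGFb1 is a growth factor known to raise matrix production, IL1b and TNF are inflammatory cytokines, and CHIR is a short name often used for a drug that blocks GSK3 and so turns on Wnt signalling, although the labels do not spell it out. The sources used here do not give doses, times, mouse strain or age, nor whether the 3 libraries of a group were separate cultures, so p-values measure the spread between these libraries, which may be technical. No untreated group and no group with IL1b or TNF but without TGFb1 was analysed here. The labels name no solvent for the CHIR, TGFb1, TGFb1 + CHIR, TGFb1 + IL1b or TGFb1 + TNF groups.

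Libraries held 19796379 to 29276382 counts. Markers of the labelled cell type were present. Ly6a, which encodes Sca-1, stood at 142 ± 5.52 CPM (read counts scaled to a common library size, mean ± SD, n = 3) in DMSO and at 7.83 ± 0.949 in TGFb1 + CHIR. For Ly6c1 the corresponding levels were 49.8 ± 1.77 and 0.703 ± 0.128 CPM. Summed over 9 fibroblast markers the level ran from 22888 to 23976 CPM in the TGFb1 + TNF libraries and from 75199.9 to 83541 CPM in TGFb1 + CHIR. Col1a1, Col1a2 and Col3a1 make up most of this sum, with 34041 ± 2176, 19229 ± 1021 and 24258 ± 1127 CPM in TGFb1 + CHIR. Other markers of the list were lower there than in DMSO, Dcn at 91.8 ± 4.21 against 2013 ± 43 CPM, Pdgfra at 513 ± 19.6 against 1485 ± 17.6 and Lum at 1.15 ± 0.57 against 9.24 ± 1.11. Of 8 immune markers 3 were tested, the sum over libraries ran from 1.56 to 6.83 CPM, and Ptprc, Adgre1 and Cd3e were at 0 throughout. The 7 epithelial markers summed to at most 2.24 CPM in any library. The 7 endothelial markers summed to 4.57 to 24.9 CPM, highest in TGFb1 + CHIR, where Kdr gave 20.4 ± 1.12 CPM. The 5 mesothelial markers summed to 8.64 to 33.2 CPM, most of it Wt1, and the 7 mural and smooth muscle markers to 504 to 1299 CPM, led by Pdgfrb, which fibroblasts also express, in every group but TGFb1 + TNF, where Cspg4 led with 273 ± 6.21 CPM.

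The members lie apart from each other in the GRCm38 genome, apart from Ccn3 and Ccn4, which share a chromosome. Ccn1 (ENSMUSG00000028195) is on chromosome 3 from 145646976 to 145649981 on the minus strand. Ccn2 (ENSMUSG00000019997) is on chromosome 10 from 24595442 to 24598683 on the plus strand. Ccn3 (ENSMUSG00000037362) is on chromosome 15 from 54745702 to 54754039 and Ccn4 (ENSMUSG00000005124) on the same chromosome from 66891320 to 66923201, both on the plus strand. Ccn5 (ENSMUSG00000027656) is on chromosome 2 from 163820861 to 163833146 on the plus strand. Of the 5, only Ccn2 overlaps another annotated gene, Gm15270 on the opposite strand. Gm15270 was at 0.323 ± 0.0433 CPM in CHIR and 10.6 ± 1.68 CPM in TGFb1, the groups in which Ccn2 itself was lowest and highest. The sources used here do not say how reads were assigned by strand, so reads of the pair may be shared, and Gm15270 held 2637 counts in all libraries together.

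The promoter table from RefSeq (GRCm38.p6) held 1 of the 5 members, Ccn1. Ccn1 had the largest response of the family to CHIR without TGFb1. Its 250 bases before the transcription start, chr3:145649986-145650235 on the minus strand, are shown, as the only window of a member available. They are written 5′ to 3′ in the direction of transcription, with the only match to the motifs searched in capitals.
Ccn1: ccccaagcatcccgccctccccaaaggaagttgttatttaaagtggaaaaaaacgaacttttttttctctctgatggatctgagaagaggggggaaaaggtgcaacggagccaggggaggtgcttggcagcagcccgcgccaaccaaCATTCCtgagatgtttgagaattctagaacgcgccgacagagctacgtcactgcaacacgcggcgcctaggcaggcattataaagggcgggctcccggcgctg
The capitals mark GGAATG, the core of the TEAD motif, read on the other strand, at 103 to 98 bases before the start. Of 32851 promoter windows of this length, 12.6% held GGAATG on either strand. On either strand the window held no TGANTCA (the AP-1 motif, in 6.75% of windows), no CAGAC (SMAD, 42.2%), no TCAAAG (TCF and LEF, 13.8%) and no CArG box (the SRF site, 1.47%). With only this match, no overlap between motifs could arise. A match describes letters, not binding.

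Across the 7 treatments the 5 genes did not follow a common course. The plot of levels by library shows that Ccn1 and Ccn3 were highest in DMSO and Ccn5 was nearly absent in TGFb1 + TNF. Ccn2 and Ccn4 were higher in every group with TGFb1 than in DMSO or CHIR. Among the groups with TGFb1, Ccn2 was lowest in TGFb1 + CHIR. From the lowest to the highest group mean, Ccn5 spanned 200.1-fold, Ccn3 39.6-fold, Ccn1 21.8-fold, Ccn2 20.9-fold and Ccn4 11.3-fold. Replicates lay close: of the 35 combinations of gene and group, Ccn5 in TGFb1 + TNF had a coefficient of variation of 78.4%, and the others ran from 0.529% to 13.3%.

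**Figure D1:**
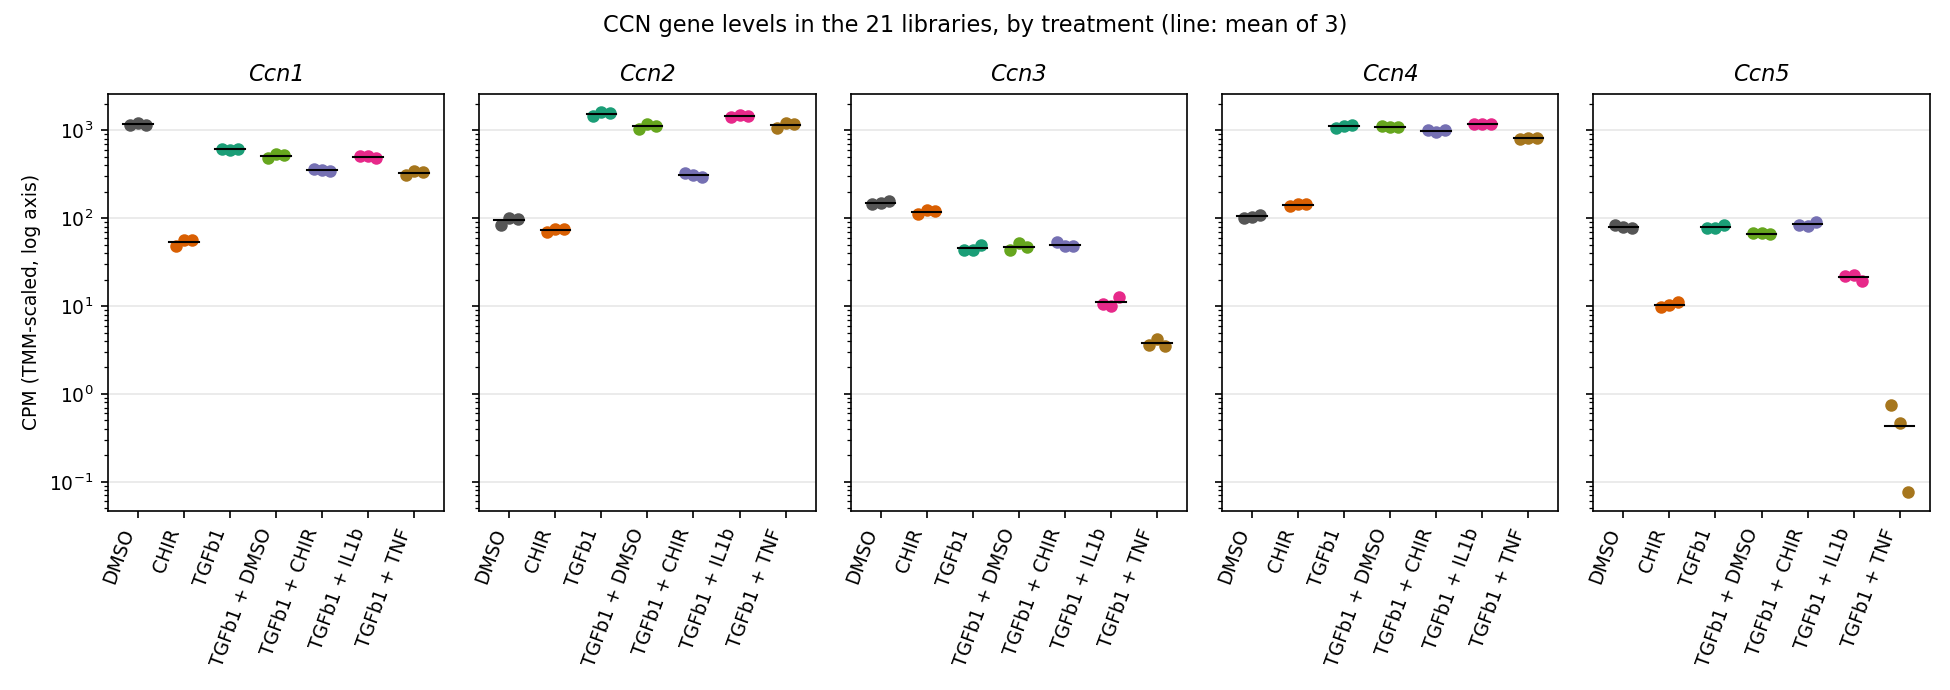
Level of each CCN gene (vertical axis, TMM-scaled CPM, log scale) in every library of the 7 treatments, with a line at the mean of 3. Ccn1 falls from 1169.9 ± 29.4 CPM in DMSO to 53.6 ± 5.03 in CHIR, and the 3 Ccn5 points of TGFb1 + TNF lie between 0.0761 and 0.744 CPM.

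Ccn1 is known as an early response gene, and its product binds integrins and in wounds pushes fibroblasts towards senescence. The level of Ccn1 in DMSO was 1157, 1203 and 1149 CPM. In CHIR it was 47.8, 56.8 and 56.3 CPM, far below every other library of the series. With TGFb1 the level was 609, 603 and 605 CPM, and with TGFb1 + DMSO 486, 532 and 525 CPM. The libraries of TGFb1 + CHIR held 360.3, 357 and 346 CPM, those of TGFb1 + IL1b 516, 506 and 480.4 CPM and those of TGFb1 + TNF 309, 346 and 335 CPM. In order of the means the groups ran DMSO, TGFb1, TGFb1 + DMSO, TGFb1 + IL1b, TGFb1 + CHIR, TGFb1 + TNF and CHIR. Of these neighbours, TGFb1 + DMSO and TGFb1 + IL1b overlapped, and TGFb1 + CHIR and TGFb1 + TNF met without overlap.

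Ccn2, known as a gene induced by TGFb, stood at 84.5, 101 and 97 CPM in DMSO and at 69.2, 75.3 and 76 CPM in CHIR. It was at 1451, 1595 and 1566 CPM in TGFb1 and at 1038, 1183 and 1117 CPM in TGFb1 + DMSO. The libraries of TGFb1 + CHIR lay between these levels, at 327, 309.7 and 298 CPM. TGFb1 + IL1b gave 1432, 1500.1 and 1464 CPM and TGFb1 + TNF 1067, 1226 and 1179 CPM. From the top the order was TGFb1, TGFb1 + IL1b, TGFb1 + TNF, TGFb1 + DMSO, TGFb1 + CHIR, DMSO and CHIR. The first and second groups overlapped, as did TGFb1 + TNF and TGFb1 + DMSO, while the other neighbours did not.

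Ccn4, known as a Wnt1-induced gene and reported as profibrotic in mouse lung, had the smallest span. It stood at 101, 103 and 110 CPM in DMSO and at 138, 144 and 146 CPM in CHIR. Every group with TGFb1 was higher: 1057, 1116 and 1148 CPM in TGFb1, and 1112, 1103 and 1083 CPM in TGFb1 + DMSO. TGFb1 + CHIR held 1008, 955 and 999 CPM, TGFb1 + IL1b 1186, 1174 and 1185 CPM, and TGFb1 + TNF 797, 828 and 820.1 CPM. The order was TGFb1 + IL1b, TGFb1, TGFb1 + DMSO, TGFb1 + CHIR, TGFb1 + TNF, CHIR and DMSO, and only TGFb1 and TGFb1 + DMSO overlapped among neighbours.

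Ccn3, described in mesangial cells as a brake on CCN2 and matrix production, was highest without TGFb1, at 144, 149 and 158 CPM in DMSO and 110.5, 124 and 122 CPM in CHIR. In TGFb1 it was at 42.9, 43.3 and 49.3 CPM. TGFb1 + DMSO held 43.7, 52.5 and 46.6 CPM and TGFb1 + CHIR 53, 47.9 and 48.7 CPM, so these 3 groups overlapped as neighbours. The cytokine groups were lower than all others, with 10.6, 10 and 12.8 CPM in TGFb1 + IL1b and 3.64, 4.23 and 3.5 CPM in TGFb1 + TNF, with no overlap between them.

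Ccn5, which lacks the cystine knot and is known from cultured smooth muscle as a growth inhibitor, was at 83.8, 79.6 and 76.8 CPM in DMSO and 9.87, 10.2 and 11.2 CPM in CHIR. It was at 77.8, 77.6 and 84.5 CPM in TGFb1 and at 67.3, 67.4 and 66.1 CPM in TGFb1 + DMSO. TGFb1 + CHIR, at 83.3, 82.4 and 90.8 CPM, overlapped DMSO, which overlapped TGFb1. TGFb1 + IL1b held 21.9, 22.3 and 19.4 CPM. In TGFb1 + TNF the libraries held 20, 13 and 2 counts, or 0.744, 0.462 and 0.0761 CPM, and the third was well below the other pair. No other neighbours in the order overlapped.

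Levels can be compared between genes per length of exon. In DMSO Ccn1 made up 79.9 ± 0.531% of the summed CPM per kb of the 5 genes (mean ± SD, n = 3), with Ccn4 the lowest at 2.6 ± 0.138%. In TGFb1 Ccn2 led at 49.1 ± 1%, followed by Ccn1 at 27.5 ± 1.01% and Ccn4 at 18.2 ± 0.28%. The sum over the 5 genes was 725 ± 15.8 CPM per kb in DMSO, 125 ± 7.2 in CHIR and 1094 ± 33.9 in TGFb1. TGFb1 + CHIR, at 524 ± 10.5 CPM per kb, held nearly equal shares of Ccn4 (33.9 ± 0.663%) and Ccn1 (33.5 ± 0.628%), whose libraries overlapped. In CHIR the leading member was Ccn3, with 33.2 ± 0.263%. TGFb1 + TNF held 56.5 ± 0.801% Ccn2, the highest share of that gene in any group, and 0.0317 ± 0.0261% Ccn5.

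**Figure D2:**
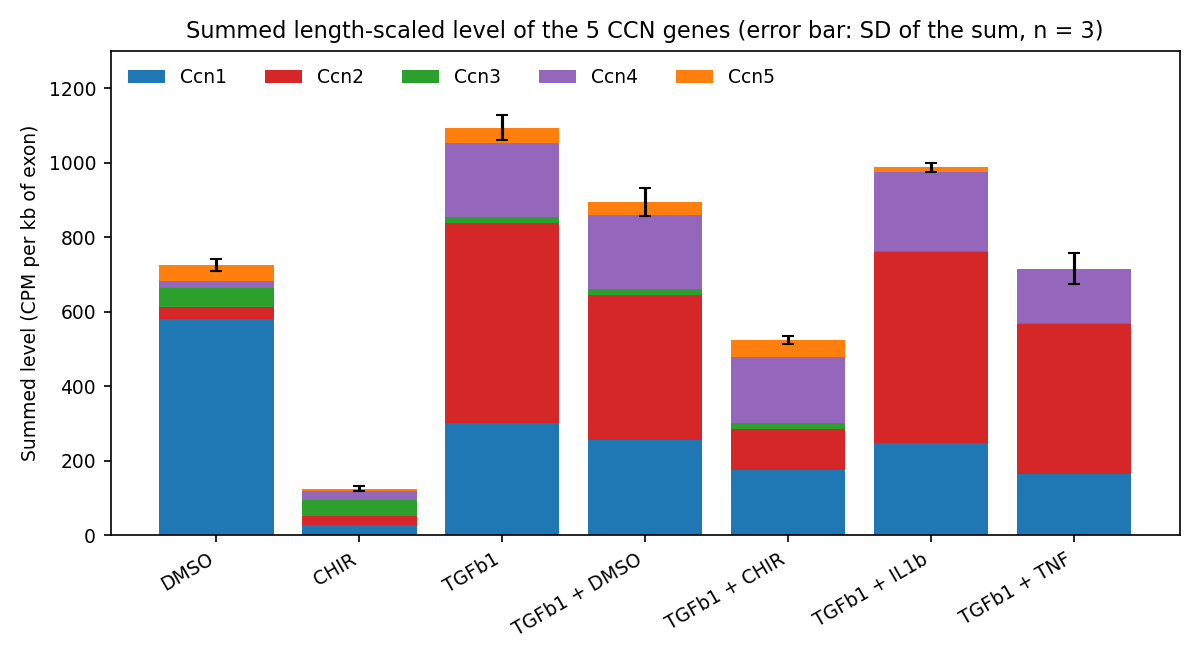
Summed level of the 5 CCN genes per kb of exon (vertical axis, CPM per kb) in each treatment, split by gene, with the SD of the sum over 3 libraries. The sum is 725 ± 15.8 in DMSO with Ccn1 at 79.9% of it, and 893 ± 37.7 in TGFb1 + DMSO with Ccn2 at 43.5 ± 1.01%.

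The comparisons below were fitted with edgeR's quasi-likelihood test over all 21 libraries, with p-values adjusted by the Benjamini-Hochberg method over all genes tested and a threshold of 0.05. Log2 fold changes are given with their SE in brackets, positive where the first group is higher. In bulk RNA, fewer cells of a type and less RNA per cell cannot be told apart. Comparisons that use the same control libraries are not independent of each other.

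TGFb1 + DMSO against DMSO asked what TGFb1 did within the solvent. Ccn2 rose 11.8-fold (3.56 ± 0.068, adjusted p = 3.54e-23) and Ccn4 rose 10.5-fold (3.39 ± 0.042, adjusted p = 2.85e-50). Ccn1 fell 2.27-fold (-1.19 ± 0.045, adjusted p = 3.02e-28) and Ccn3 fell 3.15-fold (-1.65 ± 0.068, adjusted p = 2.65e-26). Ccn5 fell 1.2-fold (-0.26 ± 0.072, adjusted p = 0.00177), a call that ended when TGFb1 without solvent was compared with DMSO (0.00, adjusted p = 0.964). All 5 members passed, beside 62.0% of all genes tested (30.7% higher, 31.3% lower), and the libraries did not overlap for any of the 5, beside 64.7% of all genes. A larger absolute change than that of Ccn2 was found in 3.75% of genes, and than that of Ccn4 in 4.14%.

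CHIR against DMSO asked what CHIR did without TGFb1. Ccn1 fell 21.8-fold (-4.45 ± 0.053, adjusted p = 7.31e-49), and 0.21% of genes had a larger absolute change. Ccn5 fell 7.7-fold (-2.95 ± 0.087, adjusted p = 4.05e-30), a change exceeded by 0.951% of genes. Ccn2 fell 1.28-fold (-0.36 ± 0.067, adjusted p = 0.000102) and Ccn3 fell 1.27-fold (-0.34 ± 0.065, adjusted p = 2.04e-05). Ccn4 rose 1.36-fold (0.45 ± 0.041, adjusted p = 1.65e-13). Thus 1 member rose and 4 fell, beside 44.8% of all genes passing (22.1% higher, 22.7% lower), and the libraries did not overlap for any member, beside 53.0% of all genes.

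With TGFb1 present, the largest change under CHIR was that of Ccn2. In TGFb1 + CHIR against TGFb1 + DMSO, Ccn2 fell 3.57-fold (-1.84 ± 0.063, adjusted p = 1.89e-17) and Ccn1 fell 1.45-fold (-0.54 ± 0.045, adjusted p = 2.35e-14). Ccn4 fell 1.11-fold (-0.15 ± 0.038, adjusted p = 0.000588), while Ccn5 rose 1.28-fold (0.35 ± 0.073, adjusted p = 7.38e-05). The Ccn5 call ended when TGFb1 without solvent was the control (0.10, adjusted p = 0.289). Ccn3 did not pass (0.07 ± 0.071, 95% interval -0.08 to 0.21, adjusted p = 0.485). In this comparison 43.3% of all genes passed (20.8% higher, 22.5% lower), and the libraries did not overlap for 4 of the 5 members, beside 50.8% of all genes.

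The difference between the CHIR effect with TGFb1 and that without it was tested as an interaction, which 41.2% of genes passed (20.3% of genes with a negative value) and which all 5 members passed, 3 with a positive and 2 with a negative value. It was 3.91 ± 0.068 for Ccn1 (adjusted p = 1.48e-41) and 3.30 ± 0.11 for Ccn5 (adjusted p = 1.39e-27), positive because the fall under CHIR was small or missing with TGFb1. It was -1.48 ± 0.091 for Ccn2 (adjusted p = 2.51e-12), whose fall was larger with TGFb1. For Ccn4 it was -0.60 ± 0.055 (adjusted p = 3.28e-13) and for Ccn3 0.41 ± 0.096 (adjusted p = 0.000499). Interactions larger in absolute size than that of Ccn1 were found in 1.36% of genes.

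**Figure D3:**
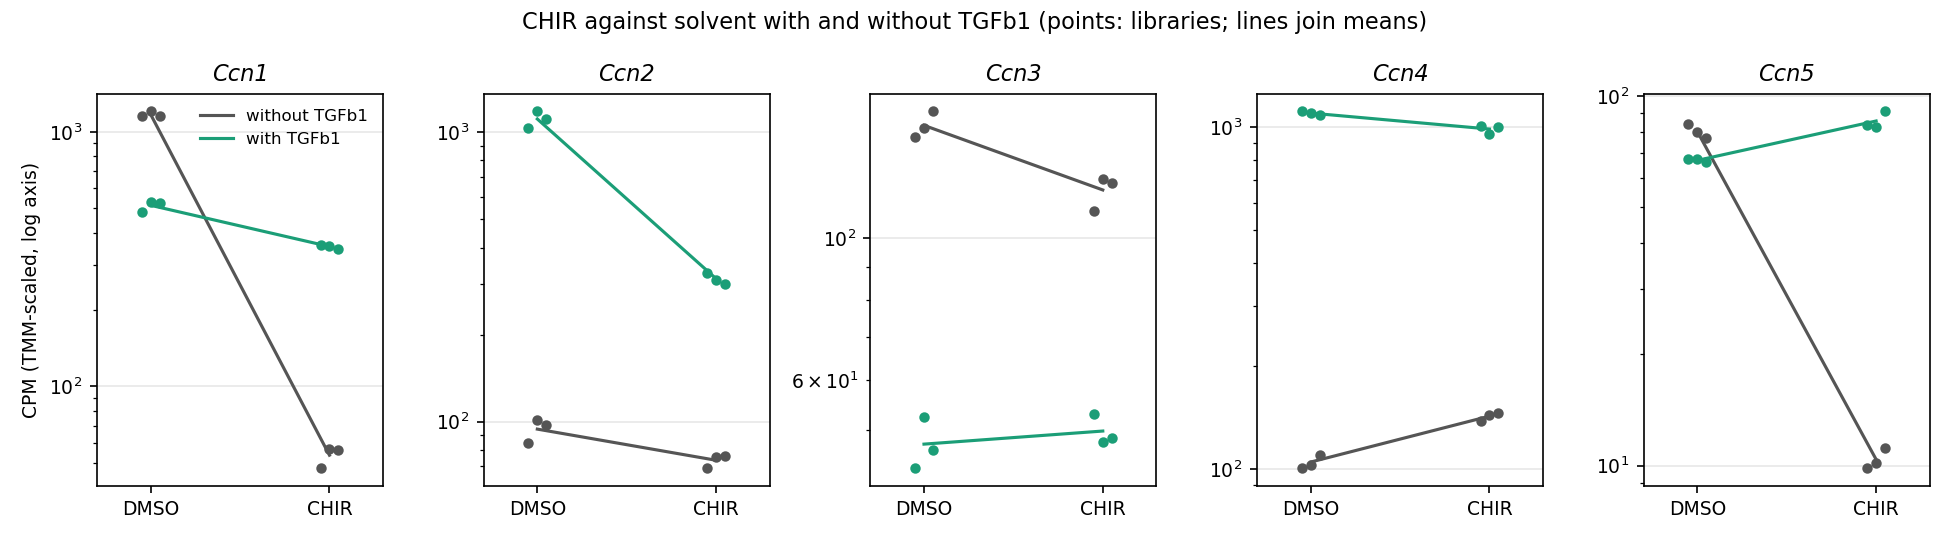
Level of each CCN gene (vertical axis, TMM-scaled CPM, log scale with its own range per gene) with solvent or CHIR, without TGFb1 (grey) and with it (green), points for libraries and lines between means of 3. The grey line of Ccn5 falls from 80.1 ± 3.54 to 10.4 ± 0.721 CPM, while the green line goes from 66.9 ± 0.733 to 85.5 ± 4.61.

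TGFb1 + CHIR against CHIR asked what TGFb1 did in CHIR-treated cells. Here 4 members rose and Ccn3 fell, beside 66.2% of all genes passing (33.8% higher, 32.3% lower). No member's libraries overlapped, beside 70.6% of all genes without overlap. Ccn5 rose 8.22-fold (3.04 ± 0.088, adjusted p = 9.61e-32), Ccn4 6.93-fold (2.79 ± 0.041), Ccn1 6.62-fold (2.73 ± 0.051) and Ccn2 4.24-fold (2.09 ± 0.067, adjusted p = 1.22e-18). Ccn3 fell 2.38-fold (-1.25 ± 0.069, adjusted p = 2.57e-21). For Ccn1 this direction is opposite to that of TGFb1 within the solvent (-1.19), which is the same interaction read the other way. For Ccn5 the value within the solvent was small, at -0.26. The TGFb1 group held Ccn5 at 80 ± 3.97 CPM, against 80.1 ± 3.54 in DMSO.

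IL1b and TNF were added to TGFb1 and compared with TGFb1 alone. With TNF all 5 members fell, beside 28.8% of all genes lower, 27.7% higher and 56.6% passing in either direction. No member's libraries overlapped, beside 58.9% of all genes without overlap. Ccn5 fell 184-fold (-7.52 ± 0.14, adjusted p = 1.7e-38), exceeded in absolute change by 0.0494% of genes. This estimate rests on few counts: it was -7.04 without the third TNF library and -8.15 without the first. Both values lie outside its 95% interval of -7.82 to -7.25, so the SE understates the spread between the TNF libraries. Ccn3 fell 11.8-fold (-3.57 ± 0.098, adjusted p = 4.2e-33), Ccn1 1.84-fold (-0.88 ± 0.046) and Ccn4 1.36-fold (-0.44 ± 0.038, adjusted p = 8.8e-15). Ccn2 fell 1.33-fold (-0.41 ± 0.06, adjusted p = 2.84e-06), but against TGFb1 + DMSO it was at 0.06 (adjusted p = 0.447). The summed fibroblast markers were lower in this group too, 23465 ± 547 CPM against 63798 ± 1258 in TGFb1, with Pdgfra at 76.8 ± 1.77 against 424 ± 26.4 CPM and Dcn higher at 533 ± 4.99 against 224 ± 10.1. Their part in the fall of the CCN genes was not tested.

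With IL1b the largest changes were those of Ccn3 and Ccn5. Ccn3 fell 4.04-fold (-2.01 ± 0.082, adjusted p = 3.95e-25) and Ccn5 fell 3.77-fold (-1.91 ± 0.079, adjusted p = 2.56e-24), exceeded in absolute change by 2.23% and 2.56% of genes. Ccn1 fell 1.21-fold (-0.27 ± 0.045, adjusted p = 2.01e-06), and was at -0.04 against TGFb1 + DMSO (adjusted p = 0.534). Ccn2 did not pass (-0.07 ± 0.06, 95% interval -0.19 to 0.06, adjusted p = 0.417), and against TGFb1 + DMSO it was higher, at 0.40 (adjusted p = 9.36e-06). Ccn4 rose 1.07-fold (0.09 ± 0.038, adjusted p = 0.0454), a call at the edge of the threshold that 4 other settings and 5 of the 6 left-out libraries ended. Thus 1 member rose and 3 fell, beside 34.6% of all genes passing (17.2% higher, 17.4% lower), and 4 members had libraries without overlap, beside 45.5% of all genes. The fibroblast markers, mostly collagens, summed to 59678 ± 872 CPM here, while Pdgfra stood at 211 ± 5.81 CPM against 424 ± 26.4 in TGFb1, Pdgfrb at 510.1 ± 19 against 970 ± 30.6 and Dcn at 483 ± 7 against 224 ± 10.1. Their part in the IL1b result was not tested.

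Compared directly, all 5 members were higher in TGFb1 + IL1b than in TGFb1 + TNF, beside 24.7% of all genes higher, 22.8% lower and 47.6% passing. No member's libraries overlapped, beside 55.1% of all genes without overlap. Ccn5 was 48.7-fold higher (5.61 ± 0.17, adjusted p = 1.7e-30), or 5.13 and 6.24 without the third or the first TNF library. Both lie outside the 95% interval of 5.29 to 5.96, so here too the SE understates the spread. Ccn3 was 2.93-fold higher (1.55 ± 0.11, adjusted p = 2.67e-16). Ccn1 (0.60 ± 0.045), Ccn4 (0.54 ± 0.038) and Ccn2 (0.34 ± 0.06, adjusted p = 4.62e-05) differed by less.

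Part of the family differed between TGFb1 + DMSO and TGFb1. The labels name no solvent for TGFb1, and whether the solvent was the cause was not tested. In TGFb1 + DMSO against TGFb1, 3 members fell, beside 3.80% of all genes lower, 2.33% higher and 6.13% passing. The same 3 had libraries without overlap, beside 21.3% of all genes. They were Ccn2, 1.38-fold (-0.47 ± 0.06, adjusted p = 1.88e-05), Ccn5, 1.19-fold (-0.25 ± 0.073, adjusted p = 0.0238), and Ccn1, 1.18-fold (-0.24 ± 0.045, adjusted p = 0.000364). The Ccn5 call was lost without any 1 of the TGFb1 + DMSO libraries or without the third TGFb1 library, with values of -0.26 to -0.21. Ccn3 (0.08 ± 0.071, 95% interval -0.06 to 0.22) and Ccn4 (-0.01 ± 0.038, -0.09 to 0.07) did not pass.

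**Figure D4:**
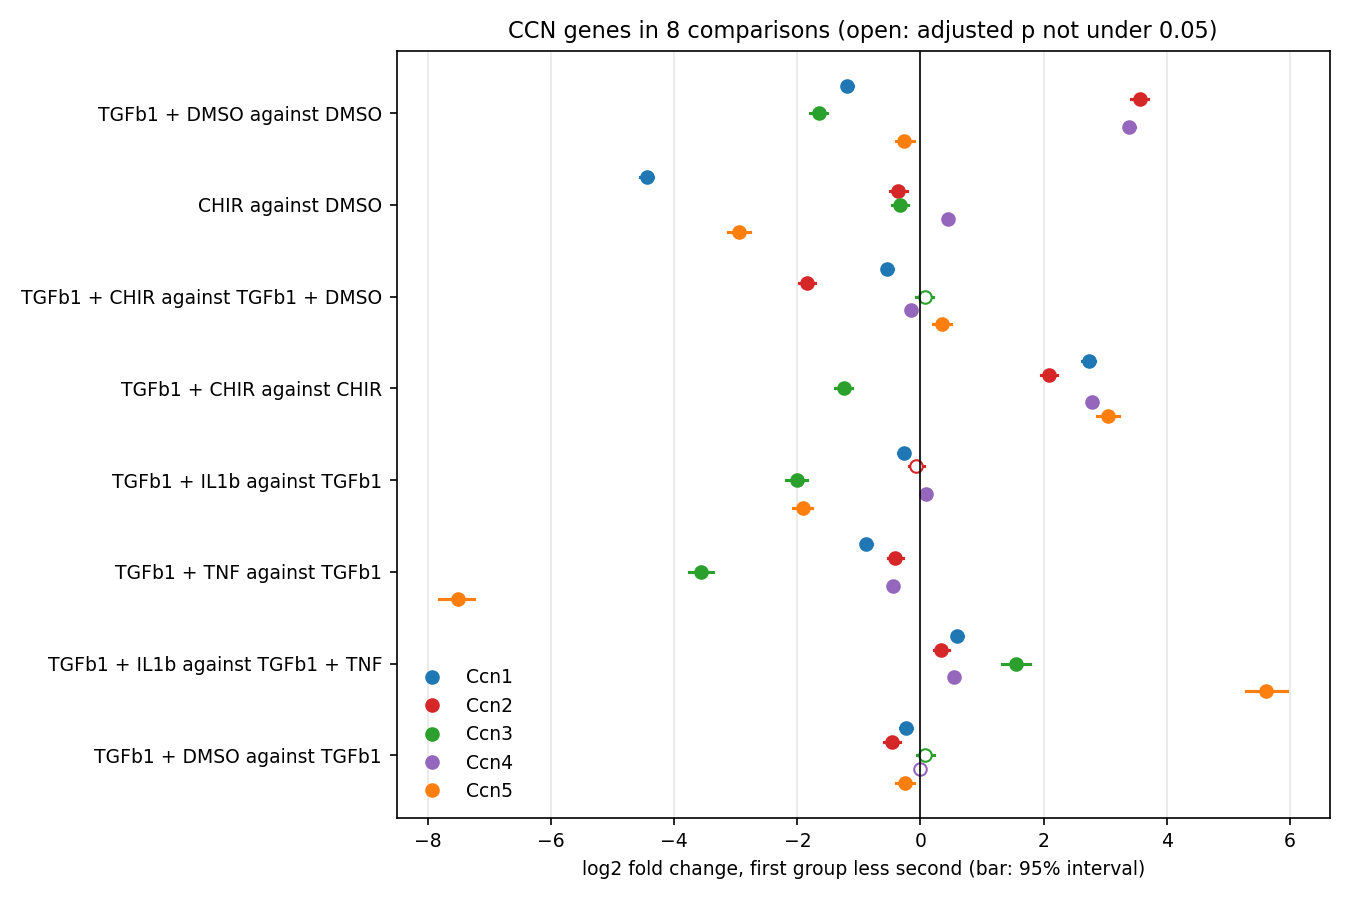
Log2 fold change of each CCN gene (horizontal axis, bar for the 95% interval) in 8 comparisons, filled where the adjusted p was under 0.05. Ccn5 stands at -7.52 for TNF added to TGFb1 and Ccn1 at -4.45 for CHIR against DMSO, while Ccn2 and Ccn4 lie above 3 for TGFb1 in the solvent. The Ccn5 bars that use TGFb1 + TNF rest on few counts and do not cover the values without the first or the third TNF library.

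Genes around the family were described from lists by function, none of which holds a CCN gene. Each count below stands beside the share of all 16197 genes that passed in that direction, and the median over all genes was -0.02 for TGFb1 in the solvent, -0.01 for CHIR without TGFb1 and 0 for CHIR, TNF or IL1b added to TGFb1. The YAP and TEAD list holds the YAP and TAZ genes, their TEAD partners and known targets. Of its 31 genes tested, 12 rose and 13 fell in CHIR against DMSO (median -0.07, all genes 22.1% higher, 22.7% lower). Ankrd1, a stretch-responsive target, fell from 161 ± 5.2 to 16.4 ± 0.816 CPM (-3.30 ± 0.067) and Amotl2, a junction protein that feeds back on YAP, fell from 519 ± 11 to 99.1 ± 3.58 CPM (-2.39 ± 0.052), as Ccn1 fell from 1169.9 ± 29.4 to 53.6 ± 5.03. Dock5 (1.34 ± 0.062) and Nt5e (1.13 ± 0.21) rose. With TGFb1 present, 11 rose and 12 fell under CHIR (median -0.01, all genes 20.8% higher, 22.5% lower), led upward by Igfbp3, an insulin-like growth factor carrier (4.43 ± 0.05), and Tgfb2 (1.67 ± 0.058), and downward by Nuak2 (-1.56 ± 0.12) and Amotl2 (-0.94 ± 0.05). For TGFb1 in the solvent 9 rose and 18 fell (median -0.27, all genes 30.7% higher, 31.3% lower), with Nt5e at 3.27 ± 0.16 and F3, the tissue factor gene, at -4.12 ± 0.058. With TNF 10 rose and 17 fell (median -0.44, all genes 27.7% higher, 28.8% lower), with Igfbp3 at -3.15 ± 0.054. With IL1b 3 rose and 18 fell (median -0.17, all genes 17.2% higher, 17.4% lower). In TGFb1 + DMSO against TGFb1, 1 rose and 8 fell (median -0.06, all genes 2.33% higher, 3.80% lower).

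Among 16 SRF and MRTF genes, the actin-regulated programme that CCN1 and CCN2 share with smooth muscle genes, 2 rose and 13 fell under CHIR without TGFb1 (median -0.44, all genes 22.1% higher, 22.7% lower), with Fhl2 at -1.76 ± 0.063 and Srf itself at -1.35 ± 0.061. Under CHIR with TGFb1, 5 rose and 8 fell (median -0.11, all genes 20.8% higher, 22.5% lower), with Acta2 at -0.84 ± 0.049. With TNF 1 rose and 14 fell (median -0.64, all genes 27.7% higher, 28.8% lower), with Myl9 at -3.19 ± 0.069 and Cnn1 at -2.02 ± 0.068. With IL1b 0 rose and 13 fell (median -0.26, all genes 17.2% higher, 17.4% lower). In TGFb1 + DMSO against TGFb1, 0 rose and 13 fell as well (median -0.24, all genes 2.33% higher, 3.80% lower). The lists were not compared between the cytokine groups and TGFb1 + DMSO. How far these counts depend on the TGFb1 control was not tested. For TGFb1 in the solvent 8 rose and 8 fell (median -0.06, all genes 30.7% higher, 31.3% lower), with Cnn1 at 1.60 ± 0.068, Fhl2 at -0.72 ± 0.059 and Mrtfb at -0.69 ± 0.065.

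Of 18 TGFb and SMAD genes, 11 rose and 4 fell with TGFb1 in the solvent (median 0.56, all genes 30.7% higher, 31.3% lower), Pmepa1 (3.55 ± 0.042) and Skil (3.05 ± 0.053), feedback inhibitors of SMAD signalling, among those that rose. When CHIR was added to TGFb1, 1 rose and 11 fell (median -0.27, all genes 20.8% higher, 22.5% lower). Ltbp2, which encodes a matrix protein, fell by 2.71 ± 0.046 and Smad3 by 1.23 ± 0.056 on the log2 scale, while Pmepa1 rose (0.34 ± 0.037) where Ccn2 fell. With TNF 6 rose and 7 fell (median 0.02, all genes 27.7% higher, 28.8% lower). Tgif1, a SMAD co-repressor (1.53 ± 0.05), and Smurf1 (1.06 ± 0.047) rose, and Tgfbr2, a TGFb receptor (-2.33 ± 0.043), and Tgfbi (-2.23 ± 0.057) fell.

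Of 22 Wnt and beta-catenin genes 18 were tested. Under CHIR without TGFb1, 9 rose and 4 fell (median 0.18, all genes 22.1% higher, 22.7% lower), with the transcription factor gene Lef1 (1.95 ± 0.16) and Lgr6 (2.06 ± 0.27) rising and the cyclin gene Ccnd1 falling (-2.10 ± 0.081). Under CHIR with TGFb1, 12 rose and 6 fell (median 1.99, all genes 20.8% higher, 22.5% lower), with Nkd2, a Wnt antagonist, at 4.68 ± 0.089 and Tnfrsf19 at 4.27 ± 0.18 among those that rose and Lgr6 at -2.66 ± 0.13 and Ccnd1 at -1.56 ± 0.085 among those that fell. Ccn4 and Ccn5, both first named for induction by Wnt1, were at -0.15 ± 0.038 and 0.35 ± 0.073 in that comparison. Under CHIR without TGFb1, Ccn4 was at 0.45 ± 0.041 and Ccn5 at -2.95 ± 0.087. With TNF 7 rose and 10 fell (median -0.31, all genes 27.7% higher, 28.8% lower), with Nkd2 at -3.69 ± 0.15 and Axin2 at -2.45 ± 0.18 among those that fell and Dkk2 at 1.99 ± 0.095 and Tnfrsf19 at 1.90 ± 0.2 among those that rose.

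Receptors for CCN proteins were listed separately, with 13 of 15 tested. Of these, 6 rose and 5 fell with TGFb1 in the solvent (median 0.14, all genes 30.7% higher, 31.3% lower), including Itga5 (2.48 ± 0.037) and Itgb3 (2.34 ± 0.068), integrin subunits that rose, and Fgfr2 (-2.51 ± 0.1) and Notch1, a receptor reported to bind CCN3 (-2.18 ± 0.1), that fell. Under CHIR without TGFb1, 10 rose and 1 fell (median 0.37, all genes 22.1% higher, 22.7% lower), with Itgb3 at 1.18 ± 0.071 and, as the 1 that fell, Itga6 at -0.37 ± 0.14. Under CHIR with TGFb1, 4 rose and 6 fell (median 0.06, all genes 20.8% higher, 22.5% lower), with Fgfr2 at 1.87 ± 0.11, Itga6 at -1.08 ± 0.17 and Notch1 at -1.05 ± 0.13. With TNF 6 rose and 5 fell (median 0.16, all genes 27.7% higher, 28.8% lower), with Itga6 at 3.15 ± 0.12 and Notch1 at 1.71 ± 0.1 among those that rose and Fgfr2 at -2.29 ± 0.15 among those that fell.

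Of 13 genes for partners and proteases of CCN proteins, 11 were tested. Under CHIR with TGFb1, 5 rose and 6 fell (median -0.15, all genes 20.8% higher, 22.5% lower). Mmp13, a collagenase able to cleave CCN2, rose from 89.1 ± 6.26 to 2570 ± 204 CPM (4.85 ± 0.12), and Mmp3 rose as well (3.01 ± 0.12). Dcn, the proteoglycan decorin, which binds CCN2, was at -1.16 ± 0.043. With TGFb1 in the solvent 6 rose and 4 fell (median 0.15, all genes 30.7% higher, 31.3% lower), with Mmp13 at 3.84 ± 0.15, Vegfa at 2.07 ± 0.04, Mmp3 at -2.75 ± 0.12 and Dcn at -3.29 ± 0.044. With TNF 4 rose and 4 fell (median 0.08, all genes 27.7% higher, 28.8% lower), with Mmp9 at 5.53 ± 0.084, Dcn at 1.25 ± 0.041, Mmp3 at -2.04 ± 0.14 and Mmp14 at -1.41 ± 0.038. With CHIR alone 9 rose and 2 fell (median 0.57, all genes 22.1% higher, 22.7% lower), with Mmp13 at 2.05 ± 0.16 and Vegfa at -0.31 ± 0.04.

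**Figure D5:**
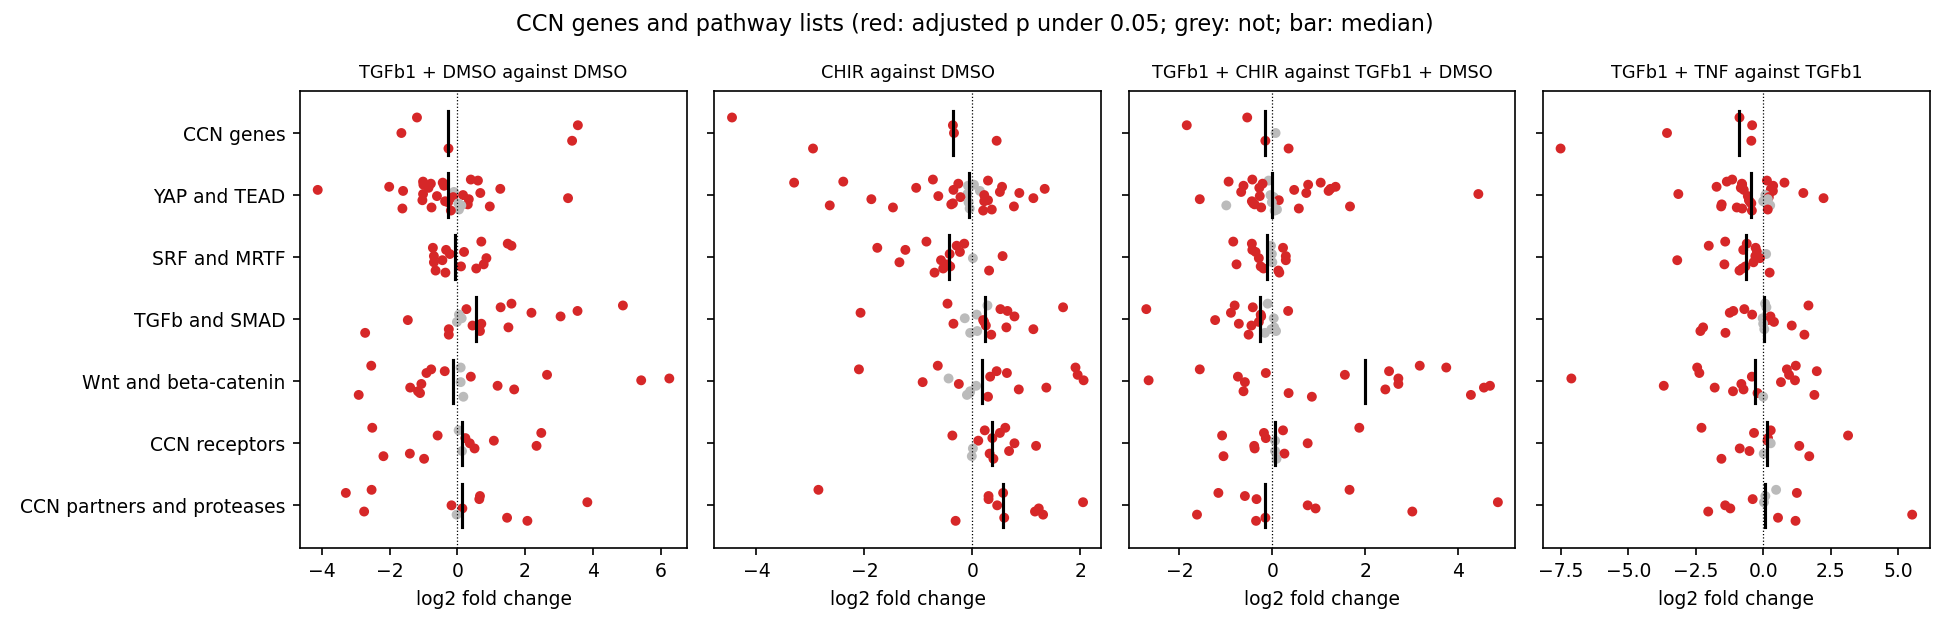
Log2 fold change (horizontal axis, with its own range per panel) of the CCN genes and of the members of 6 lists in 4 comparisons, red where the adjusted p was under 0.05, with a bar at each list's median. The Wnt and beta-catenin list has a median of 1.99 for CHIR added to TGFb1, where the CCN genes lie between -1.84 and 0.35.

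For each member the genes of most similar profile were ranked by Pearson's correlation of log2 CPM over the 21 libraries, which share treatments and are given as a description, among 9881 genes. For Ccn1 they were Egr1, an early response transcription factor (r = 0.962), Rnf113a2 (0.958) and Pim1, a kinase (0.956). All 3 were highest in DMSO and lowest in CHIR, and the span between these groups was 26.3-fold for Egr1 and 2.37-fold for Rnf113a2. For Ccn2 they included Map4, a microtubule-binding protein (0.991), and Fbn1, fibrillin 1 (0.984). The spans of Map4 and Fbn1 were 1.68-fold and 4.06-fold, below the 20.9-fold span of Ccn2. For Ccn3 they were Parm1 (0.991), Pdgfra, the receptor for platelet-derived growth factor (0.986), and Zfp324 (0.981). Those for Ccn4 were Itga5 (0.996), Ncam1, a cell adhesion molecule (0.996), and Gpr35, a G protein-coupled receptor (0.994). Those for Ccn5 were Dnajb5, a heat shock co-chaperone (0.968), Msrb1 (0.962) and Map1a (0.958), whose spans of 1.75-fold to 2.41-fold were far below the 200.1-fold span of Ccn5.

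Between members, the correlation over the 21 libraries was 0.91 for Ccn2 with Ccn4 and 0.71 for Ccn3 with Ccn5. It was -0.73 for Ccn2 with Ccn3 and -0.64 for Ccn3 with Ccn4. The remaining pairs lay between -0.16 and 0.38.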

How the data were processed

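The authors deposited raw counts per gene for 21 libraries, from libraries that, per the labels' protocols, used a stranded total RNA kit. The sources used here do not give the aligner, counter, strand setting or filters. The submitters' processing notes name GRCh38 and GRCm38 without a role. All 21 single-library tables equalled their column of the joint table. Of 52636 IDs, 52403 are in GENCODE M21 (GRCm38), the source of symbols, positions and exon lengths.

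Genes passing filterByExpr were fitted with edgeR 4.0.16 (R 4.3.3): TMM factors (0.963 to 1.05), 1 coefficient per group over all 21 libraries, robust quasi-likelihood F-tests, Benjamini-Hochberg adjustment and a threshold of 0.05. CPM uses TMM-scaled library sizes, and intervals are 95%. The standard error is the absolute log2 fold change, fitted without a prior count, over the root of F. Intervals are centred on that fitted value, so they need not be centred on the log2 fold change printed. The fit was tested on simulated data. Floors for a count of 0 use 3 counts and cover counting error only.

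Named are the 5 members, per list up to 2 genes with the highest and 2 with the lowest change among those passing with at least 2 log2 CPM, and the 3 genes of most similar profile (log2 CPM with a prior count of 2), of which 1 is not reported here. Members and lists were chosen with earlier results of these data known. Alternatives were DESeq2 1.42.0, limma 3.58.1 voom, RLE factors, library totals, no filter, a stricter filter (1 CPM in 3 libraries), only the groups compared, the other TGFb1 group, and each replicate left out.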

Additional observations from a re-analysis of the deposited data

Results flagged for a closer look

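The CHIR effect differed with and without TGFb1 for each of the 5 genes, by the edgeR interaction test, which 41.2% of all genes passed. The difference, on the log2 scale, was 3.91 for Ccn1, 3.30 for Ccn5, 0.41 for Ccn3, -0.60 for Ccn4 and -1.48 for Ccn2. For Ccn1 the CHIR effect was -4.45 without TGFb1 and -0.54 with it, with the 3 libraries of each CHIR group below those of its control in both settings. For Ccn5 the effect was -2.95 without TGFb1 and 0.35 with it, and for Ccn4 0.45 without and -0.15 with. Groups of 3 libraries are too small for a test of single outlying libraries.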

How the results depend on the processing

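Of 635 values of the 45 member results under alternatives, 614 kept their direction and their side of the threshold. With the other TGFb1 group as control or as the treated group, Ccn1 under IL1b was at -0.04, Ccn2 at 0.40 under IL1b and 0.06 under TNF, and Ccn5 at 0.10 for CHIR added to TGFb1 and 0.00 for TGFb1 against DMSO. Ccn4 under IL1b (adjusted p = 0.0454) lost its call with DESeq2 (0.07), RLE factors (0.07), the stricter filter (0.07) and no filter (0.10), where its adjusted p ran from 0.078 to 0.131. With 1 replicate left out it ran from 0.06 to 0.12. For TGFb1 + DMSO against TGFb1, Ccn4 was at 0.02 with library totals only and from -0.04 to 0.02 with 1 replicate left out. Ccn5 then ran from -0.28 to -0.21. The genes called ran from 646, without the first TGFb1 library, to 884, against 993 with all. The cause was not tested. Scaling choices reversed no called member. Depth limits Ccn5 in TGFb1 + TNF, with 35 counts in 3 libraries, and its SE there understates the spread between libraries. No paired analysis was possible because the labels give no replicate numbers shared between groups.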
